A study of Mus musculus with 24 samples.

Results

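Hba-a1, Hba-a2, Hbb-bs and Hbb-bt are the adult hemoglobin genes of the mouse, 2 copies for the alpha chain and 2 for the beta chain. They were taken by symbol as named adult alpha and beta globins, and they make up 4 of the 53465 genes listed and 4 of the 18425 genes tested. The counts come from RNA-seq of the brains of 12 mice, 6 from CAST/EiJ and 6 from WSB/EiJ, wild-derived inbred strains whose brain infarcts, by the study's design text, are of unequal size once the middle artery is occluded. The labels give tissue, strain, animal and sequencing lane for each library. They name no sex, age, treatment or brain region, and they do not say whether the vessels were flushed of blood. Each library was read on lanes 5 and 6, and the lanes were summed, so that an animal counts once. The neuronal and glial genes used to check the tissue, Snap25, Syt1, Mbp, Aldoc and Slc1a2, were abundant in both strains, with Slc1a2 at 3654 ± 605 CPM (SD, n = 6) for CAST and 3277 ± 296 CPM (SD, n = 6) for WSB. CPM, are reads scaled to the gene reads of the library, here after TMM scaling, which corrects for differences in library composition.

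Hemoglobin is a tetramer of alpha and beta chains, each of which holds a heme, and it carries oxygen in red blood cells. Mouse red blood cells lose their nucleus as they mature, but young ones keep globin RNA, so brain tissue that holds blood yields some. Globin RNA has also been described in neurons, glia and endothelium at low levels. The alpha genes stand in a cluster on chromosome 11 and the beta genes in a cluster on chromosome 7, in each case as near-identical neighbours. Hbb-bs and Hbb-bt are the names of the beta copies in the haplotype of the reference strain C57BL/6J, and other strains can carry another haplotype with other copies. The labels do not give the haplotype of CAST/EiJ or WSB/EiJ.

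How far reads can be assigned to 1 copy depends on how much the copies differ. In GENCODE M21 (mouse genome GRCm38), Hba-a1 (ENSMUSG00000069919) lies at chr11:32283511-32284465 and Hba-a2 (ENSMUSG00000069917) at chr11:32296489-32297298, both on the plus strand. Hbb-bs (ENSMUSG00000052305) lies at chr7:103826534-103828096 and Hbb-bt (ENSMUSG00000073940) at chr7:103812524-103813996, both on the minus strand. No other annotated gene overlaps any of the 4. The alpha copies have coding sequences of 429 bases that differ at 1 base, C381T from Hba-a1 to Hba-a2. The beta copies have coding sequences of 444 bases that also differ at 1 base, C417T from Hbb-bs to Hbb-bt. Positions are counted from the A of the start codon. Both changes are in exon 3 and at the third base of a codon. The coding stretches around these bases are shown because they are the only coding sequence that tells the copies apart, with the differing base in capitals. They are the reference genome's, and sequences of CAST/EiJ and WSB/EiJ were not used here.

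Hba-a1: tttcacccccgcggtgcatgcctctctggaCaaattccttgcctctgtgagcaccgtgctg
Hba-a2: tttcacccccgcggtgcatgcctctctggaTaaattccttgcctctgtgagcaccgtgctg
Hbb-bs: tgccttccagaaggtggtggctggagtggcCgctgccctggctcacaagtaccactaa
Hbb-bt: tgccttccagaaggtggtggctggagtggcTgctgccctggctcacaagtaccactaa

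Beyond the coding sequence the annotated transcripts of the copies differ in their untranslated parts. Of the stretches of 32 bases in the Hba-a1 transcript, 71.1% also occur in another gene's transcript, against 90.8% for Hba-a2. These are GENCODE transcripts, of 699 bases for Hba-a1 and 554 for Hba-a2. Their shares depend on where each is annotated to start and end. The Hba-a1 transcript begins before its RefSeq start, in a stretch whose bases also lie before Hba-a2, identical over 247 of 247 aligned bases. There they are outside the Hba-a2 transcript and were not counted as shared. The lower share of Hba-a1 therefore does not show that its reads are easier to place in the genome. The shares were 66.8% for Hbb-bs and 59.4% for Hbb-bt. With stretches of 100 bases they were 56.5% for Hba-a1, 74.5% for Hba-a2, 62.6% for Hbb-bs and 54.8% for Hbb-bt. A read that lies wholly within a shared stretch has more than 1 best place. The counter set aside alignments marked as not unique, and these are in no gene's count. No source used here states the read length or the aligner's settings for such reads. How many hemoglobin reads were set aside is not known, and the count of each single copy is therefore uncertain.

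The promoters of the 4 genes, taken as the 250 bases before the RefSeq start in GRCm38.p6, were searched on both strands for motifs known from erythroid promoters: the CCAAT box, spelled CCAAT, the TATA box, spelled TATAA, the core of sites for Klf1-like factors, spelled CACCC, and the core of sites for Gata factors, spelled GATAA. All 4 promoters hold all 4 motifs, as do 318 of 32851 RefSeq promoters of the same length, or 0.968%. The single motifs occur in 33.8% (CCAAT), 22.8% (TATAA), 52.0% (CACCC) and 22.6% (GATAA) of these promoters. The promoters of the alpha copies are identical over 247 of 247 aligned bases, shifted by the place of the annotated start. Those of the beta copies are identical in 178 of 251 aligned columns, or 70.9%. The alpha promoter is shown once and both beta promoters are shown. The beta copies were the pair whose ratio of listed reads differed between the strains with lanes summed. Motif letters are in capitals, and a match describes the letters only. They lie at chr11:32283422-32283671 on the plus strand (Hba-a1), chr7:103827929-103828178 on the minus strand (Hbb-bs) and chr7:103813924-103814173 on the minus strand (Hbb-bt).

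Hba-a1 promoter: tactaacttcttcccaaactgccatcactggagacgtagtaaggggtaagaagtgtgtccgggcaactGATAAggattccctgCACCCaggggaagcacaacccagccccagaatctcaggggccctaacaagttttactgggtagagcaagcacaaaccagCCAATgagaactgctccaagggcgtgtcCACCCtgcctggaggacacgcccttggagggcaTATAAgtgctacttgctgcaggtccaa
Hbb-bs promoter: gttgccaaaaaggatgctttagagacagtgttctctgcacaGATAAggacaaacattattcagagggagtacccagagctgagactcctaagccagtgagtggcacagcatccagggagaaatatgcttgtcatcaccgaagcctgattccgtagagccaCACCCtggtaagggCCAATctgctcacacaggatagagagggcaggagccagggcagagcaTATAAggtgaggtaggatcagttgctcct
Hbb-bt promoter: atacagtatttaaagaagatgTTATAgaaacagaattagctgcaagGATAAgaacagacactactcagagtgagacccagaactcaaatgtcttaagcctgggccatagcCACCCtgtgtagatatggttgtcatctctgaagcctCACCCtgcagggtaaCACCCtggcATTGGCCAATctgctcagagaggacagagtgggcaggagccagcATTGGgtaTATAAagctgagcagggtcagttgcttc

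In Hba-a1 the TATAA closest to the RefSeq start lies 27 to 23 bases before it. The closest lies 29 to 25 bases before it in Hbb-bs and 28 to 24 bases in Hbb-bt. The annotations disagree on the starts. GENCODE M21 begins Hba-a1 at chr11:32283511, Hbb-bs at chr7:103828096 and Hbb-bt at chr7:103813996, each within its promoter as shown. These TATAA matches therefore lie inside the GENCODE genes. That of Hba-a2, at chr11:32296489, lies at the very end of its promoter. Which start is used in brain was not tested. Hbb-bt holds 3 matches each to CCAAT, read on either strand, and CACCC. Hbb-bs holds 1 match to each of the 4 motifs.

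The libraries held 32982569 to 46513232 gene reads per animal. The share of alignments that the counter set aside as not unique was 15.6% to 16.1% in CAST and higher than that, up to 17.5%, in every WSB animal. What this share has to do with the counts of near-identical copies was not tested. The labels number 12 animals and say nothing else of their origin, so the p-values measure the spread between these samples.

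The lanes of a library differed for 2 of the members by far more than for most genes, which bears on every value that follows. Over the 12 animals, the chi-square of lane 5 against lane 6 per degree of freedom was 34.7 for Hba-a1 and 15.1 for Hbb-bs. Its median over 15229 genes with at least 20 reads in each animal was 1.02, and its 99th percentile was 2.44. Only 7 of these genes, Hba-a1 included, reached the value of Hba-a1, and 12 reached that of Hbb-bs. Hbb-bt, with 1.99, lay above 96.1% of genes. In animal WSB_147, Hba-a1 had 345 reads on lane 5 and 695 on lane 6. In WSB_169 it had 618 on lane 5 and 286 on lane 6, a read ratio of 2.16 where WSB_147 had 0.496. Neither lane was the higher one throughout, since Hba-a1, relative to the gene reads of each lane, was lower on lane 5 in 7 animals and higher in 5. For Hbb-bs the read ratio of lane 5 to lane 6 ran from 0.714 in WSB_147 to 1.37 in CAST_200, and for Hbb-bt from 0.814 to 1.32. Hba-a2 had few reads, and in CAST_203 all 12 of them were on lane 6.

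**Figure D1:**
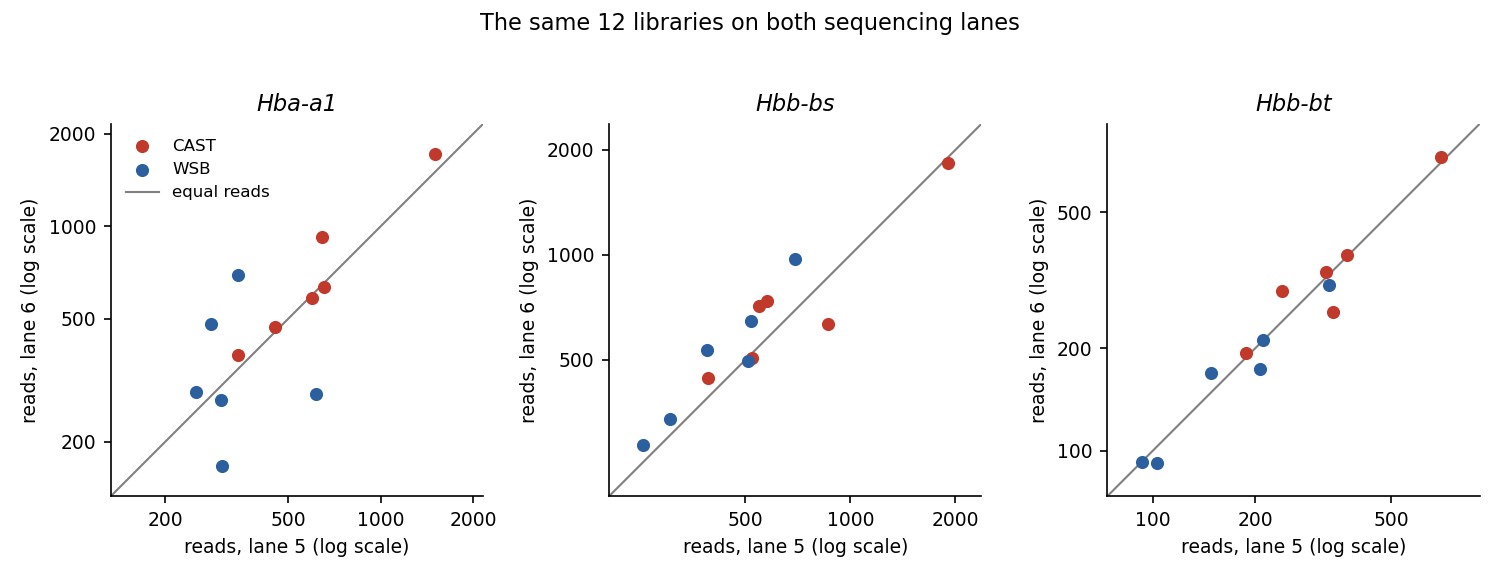
Reads of Hba-a1, Hbb-bs and Hbb-bt on lane 5 (horizontal, log scale) and lane 6 (vertical, log scale), 1 point per animal, CAST in red and WSB in blue, with a grey line of equal reads. For Hba-a1 the WSB animals scatter widely about the line, from a read ratio of lane 5 to lane 6 of 0.496 to 2.16, while Hbb-bt stays nearer to it, from 0.814 to 1.32.

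With all animals included, Hba-a1 and Hbb-bt were higher in CAST brains, each by somewhat under 1 log2 unit, and Hba-a2 and Hbb-bs did not pass the test. Neither Hba-a1 nor Hbb-bt passed it without CAST_170, or without any of several other single animals. The question this comparison addresses is which genes differ in the brain between the 2 strains. A gene was called when the Benjamini-Hochberg adjusted p of edgeR's quasi-likelihood test, over all tested genes, was under 0.05. By this rule 2 of the 4 hemoglobin genes were called, both higher in CAST, where 42.7% of all tested genes were called, 21.5% higher and 21.2% lower in CAST. The median log2 fold change of the 4 was 0.79, against 0.00464 over all tested genes. None of the 4 had separate CPM ranges in the strains, as 27.1% of all tested genes had, 13.8% with CAST higher and 13.3% with CAST lower. In bulk tissue, a difference in the number of cells of a type and a difference in RNA per cell cannot be told apart.

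Hba-a1, an alpha chain gene, had 16.4 CPM in the lowest CAST animal, a median of 28.5 CPM and 68.6 CPM in the highest. In WSB its lowest, median and highest levels were 10.1, 18.3 and 27.1 CPM. CAST_142 was the lowest and CAST_170 the highest CAST animal, and 4 CAST animals were above all WSB animals. The groups overlapped. The mean was 34.1 ± 18.2 CPM (SD, n = 6) for CAST and 18.1 ± 5.92 CPM (SD, n = 6) for WSB. The log2 fold change was 0.91 ± 0.31 (SE), 1.88-fold, with an adjusted p of 0.0312 by edgeR. Without CAST_170 it was 0.58, with an adjusted p of 0.0739 by edgeR, and the call was also lost without CAST_200, WSB_100, WSB_135 or WSB_138.

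Hba-a2, the other alpha copy, was listed at far lower levels, with 4 to 22 reads per CAST animal and 2 to 15 per WSB animal. Its lowest, median and highest levels were 0.0851, 0.261 and 0.594 CPM in CAST. In WSB they were 0.0512, 0.170 and 0.350 CPM. CAST_170, which was highest for the other 3 genes, was the lowest CAST animal here, and CAST_201 was the highest. The strains overlapped widely. The log2 fold change was 0.67 ± 0.48 (SE), with an adjusted p of 0.286 by edgeR, and leaving out 1 animal at a time gave 0.42 to 0.91.

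Hbb-bs, a beta chain gene, had lowest, median and highest levels of 18.8, 29.7 and 79.5 CPM in CAST. In WSB these were 13.8, 21.6 and 43.4 CPM. CAST_170 stood above every other animal, and WSB_147, the highest WSB animal, was above the other 5 CAST animals. The mean was 36.8 ± 21.6 CPM (SD, n = 6) for CAST and 24.9 ± 10.5 CPM (SD, n = 6) for WSB. The log2 fold change was 0.57 ± 0.34 (SE), 1.48-fold, with an adjusted p of 0.199 by edgeR. Without CAST_170 it was 0.19, with an adjusted p of 0.594 by edgeR.

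Hbb-bt, the other beta copy, had lowest, median and highest levels of 8.63, 15.1 and 30.4 CPM in CAST. In WSB these were 4.99, 7.82 and 16.6 CPM. All 6 CAST animals were above the WSB median, but WSB_147 was above all CAST animals other than CAST_170. The mean was 16.6 ± 7.25 CPM (SD, n = 6) for CAST and 8.92 ± 4.31 CPM (SD, n = 6) for WSB. The log2 fold change was 0.90 ± 0.32 (SE), 1.87-fold, with an adjusted p of 0.0366 by edgeR. Without CAST_170 it was 0.64, with an adjusted p of 0.0948 by edgeR. The call was also lost without CAST_200, CAST_203, WSB_100, WSB_135, WSB_138 or WSB_169. Without CAST_170, therefore, 0 of the 4 genes were called, while 2 were called without CAST_142 and WSB_100 together.

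**Figure D2:**
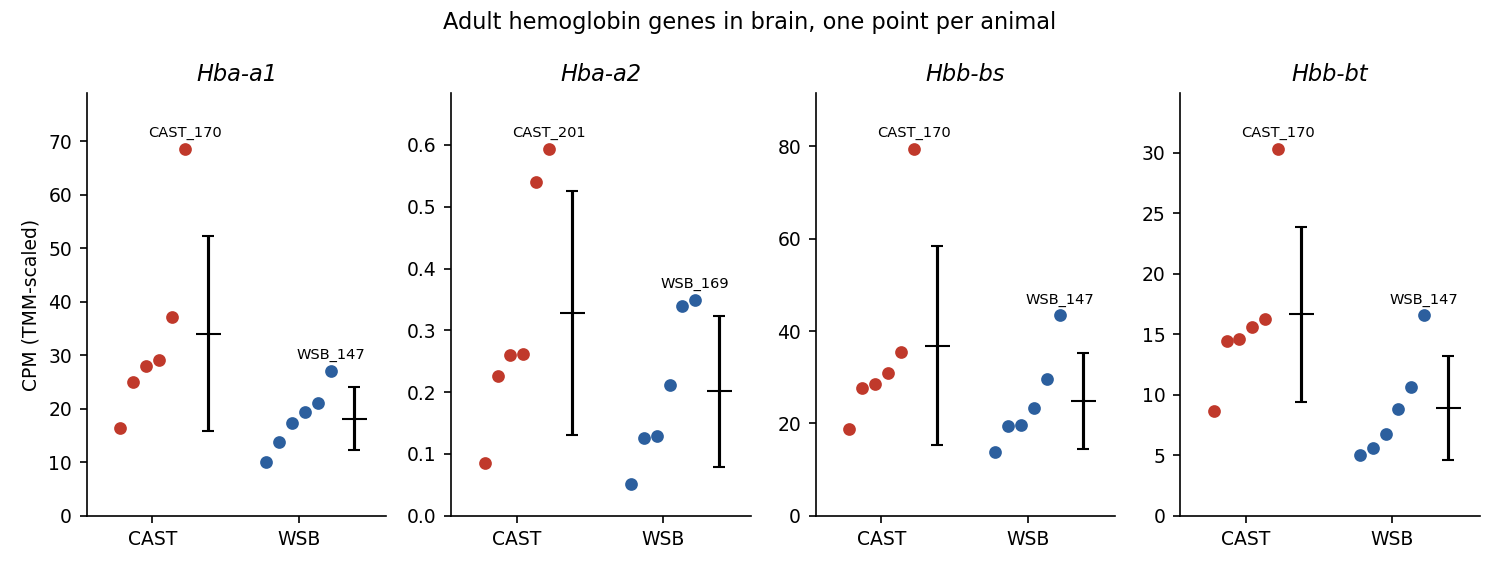
CPM of the 4 hemoglobin genes (vertical, linear from 0, scale set for each gene) in each of 6 CAST (red) and 6 WSB (blue) animals, ordered by level, with the strain mean and SD as black bars and the highest animal of each strain named. CAST_170 is far above the rest for Hba-a1, Hbb-bs and Hbb-bt, and the strains overlap for all 4 genes.

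Per kilobase of transcript, the order in CAST was Hbb-bs at 58.7 ± 34.4 CPM per kilobase, Hba-a1 at 48.7 ± 26.1, Hbb-bt at 23.7 ± 10.3 and Hba-a2 at 0.592 ± 0.356 (SD, n = 6 each). In WSB it was Hbb-bs at 39.6 ± 16.6, Hba-a1 at 25.9 ± 8.46, Hbb-bt at 12.7 ± 6.13 and Hba-a2 at 0.363 ± 0.220 (SD, n = 6 each). The genes came in the same order in both strains. Lengths were those of the whole GENCODE transcripts, shared stretches included. Hbb-bs and Hba-a1 differed by less than their spread in CAST, and the level listed for Hba-a2 was far below the rest in both. Summed over the 4 genes and without TMM scaling, hemoglobin reads came to 44.9 to 180.8 CPM in CAST and 32.4 to 87.8 CPM in WSB. CAST_170 was the highest animal of all, and CAST_142 was lower than 3 of the WSB animals.

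The ratio of reads listed for the beta copies differed between the strains with lanes summed, but did not pass the test on lane 5 alone. The ratios of the alpha copies and of alpha to beta did not pass it. The labels do not give the strains' haplotypes, and alignments that were not unique were set aside. A strain difference in the copies and one in how reads were placed on the reference copies therefore cannot be told apart. Ratios were taken within each animal, on the log2 scale with 0.5 reads added to each count, and compared by an exact two-sided permutation test of the strain labels, whose smallest p is 0.0021645. Such a ratio compares reads, not reads per length, and needs no scaling between libraries. Hbb-bs had 1.75 to 2.62 times the reads of Hbb-bt in CAST and 2.62 to 3.45 times in WSB. In 5 CAST animals the ratio was below that of every WSB animal, and CAST_170 overlapped with the lowest WSB animal. The mean log2 ratio was 1.09 ± 0.20 (SD, n = 6) in CAST and 1.51 ± 0.15 (SD, n = 6) in WSB. The difference was -0.42, with an exact permutation p of 0.004329 and an adjusted p of 0.0130 over the 3 ratios.

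Expressed as a share of reads pooled over animals, Hbb-bt made up 31.0% of beta reads in CAST and 26.4% in WSB. CAST_170 alone gave 5164 of the 14010 CAST beta reads, so it weighs most in the pooled share. In single animals the share was lowest in CAST_170 among CAST animals, at 27.6% (95% Clopper-Pearson interval 26.4 to 28.9). It was highest in CAST_203, at 36.3% (34.2 to 38.4). Among WSB animals it was lowest in WSB_138, at 22.4% (19.6 to 25.4), and highest in WSB_147, at 27.7% (25.8 to 29.5). These intervals cover counting error only, and the lanes differed by more than that for Hbb-bs. On lane 5 alone the difference in log2 ratio was -0.29, with an exact permutation p of 0.117 (adjusted 0.351). On lane 6 alone it was -0.54, with all 6 CAST animals below all WSB animals and the smallest p that the exact permutation can give, 0.0021645 (adjusted 0.00649). Leaving out 1 animal at a time gave differences of -0.48 to -0.36, with adjusted p of 0.00649 to 0.0195 by the exact permutation test.

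For the alpha copies, Hba-a1 had 41.1 to 717 times the reads of Hba-a2 in CAST and 58.4 to 216 times in WSB. The highest ratio was that of CAST_170. The mean log2 ratio was 6.74 ± 1.48 (SD, n = 6) in CAST and 6.58 ± 0.71 (SD, n = 6) in WSB, and the difference of 0.17 had an exact permutation p of 0.848 (adjusted 0.848). It turned to -0.38 without CAST_170 and to -0.21 on lane 5 alone. Pooled over animals, Hba-a2 made up 0.900% of alpha reads in CAST, 81 of 8999, and 1.11% in WSB, 48 of 4342. CAST_170 alone gave 3230 of the CAST alpha reads and had the lowest share. The pooled values therefore do not give a direction between the strains. In single animals the share of Hba-a2 ran from 0.124% (95% Clopper-Pearson interval 0.0338 to 0.317) in CAST_170 to 2.32% (1.46 to 3.50) in CAST_201. In WSB it ran from 0.369% to 1.63%.

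Summed alpha reads stood to summed beta reads as 0.606 to 0.734 in CAST and as 0.386 to 0.738 in WSB. With lanes summed, all 6 CAST animals were within a narrow range that lay inside that of WSB. On lane 5 alone the ratio was 0.549 to 0.696 in CAST and 0.345 to 0.873 in WSB. On lane 6 alone it was 0.583 to 0.961 in CAST and 0.241 to 0.770 in WSB, so the CAST range no longer lay inside that of WSB. The mean log2 ratio was -0.64 ± 0.10 (SD, n = 6) in CAST and -0.85 ± 0.38 (SD, n = 6) in WSB, and the difference of 0.21 had an exact permutation p of 0.225 (adjusted 0.338).

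**Figure D3:**
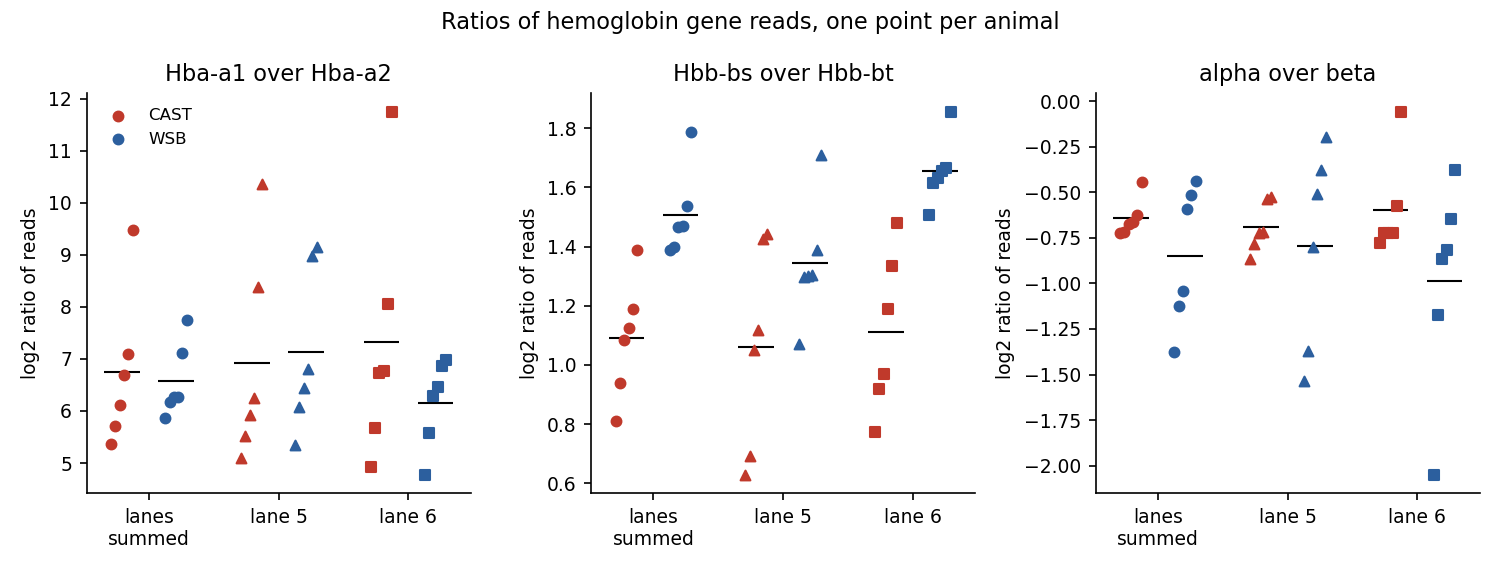
Log2 ratio of reads (vertical) for the alpha copies, the beta copies and summed alpha over summed beta, with 1 point per animal, CAST in red, WSB in blue and the strain mean as a black line, for both lanes summed (circles), lane 5 (triangles) and lane 6 (squares). The beta copies differ between the strains by -0.42 with lanes summed, by -0.29 on lane 5 and by -0.54 on lane 6; the alpha copies differ by 0.17, -0.21 and 1.16.

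Levels of Hba-a1 and Hbb-bs went together across CAST animals, and those of the beta copies across WSB animals. Over 12 relations, 6 gene pairs in each strain, 4 had an adjusted p under 0.05 for Pearson's r. In CAST, Hba-a1 and Hbb-bs had r = 0.99 (exact permutation p = 0.00139, adjusted 0.00833) and rho = 1 (exact permutation p = 0.00278, adjusted 0.0167, n = 6). Without CAST_170 and CAST_142, the animals farthest from the median, r was 0.97. Hbb-bt went with Hba-a1 (r = 0.97, exact permutation p = 0.0125, adjusted 0.0375; rho = 0.83, p = 0.0583, adjusted 0.175) in CAST, but r was 0.40 without these animals, so the relation rests on them. The same holds for Hbb-bt and Hbb-bs in CAST (r = 0.97, exact permutation p = 0.0125, adjusted 0.0375; rho = 0.83, p = 0.0583, adjusted 0.175; r = 0.18 without them).

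In WSB, the beta copies had r = 0.98 (exact permutation p = 0.00139, adjusted 0.00833) and rho = 1 (exact permutation p = 0.00278, adjusted 0.0167, n = 6), and r = 0.95 without WSB_147 and WSB_100. Hba-a1 and Hbb-bs in WSB had r = 0.76 (exact permutation p = 0.0819, adjusted 0.175). Hba-a2 had r of -0.58 with Hba-a1, -0.61 with Hbb-bs and -0.51 with Hbb-bt in CAST, and of 0.70, 0.68 and 0.63 in WSB. None of these 6 passed the test, with adjusted exact permutation p of 0.194 to 0.208. In CAST the values with Hbb-bs and Hbb-bt turned to 0.42 and 0.36 without CAST_170 and CAST_201. On lane 6 alone, 1 of the 12 relations had an adjusted p under 0.05.

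Of the other globin genes, Hbq1a, a theta-like gene of the alpha cluster whose role is not established, was far lower in CAST. It had 3 to 7 reads per CAST animal and 40 to 74 per WSB animal, at chr11:32300069-32300873, next to Hba-a2. Every CAST animal was below every WSB animal. Its level was 0.107 ± 0.0445 CPM (SD, n = 6) for CAST and 1.38 ± 0.214 CPM (SD, n = 6) for WSB. The log2 fold change of Hbq1a was -3.68 ± 0.23 (SE), with an adjusted p of 2.50e-08 by edgeR, the opposite direction to Hba-a1, and the call held in all 21 alternatives. Hbq1b, its copy between Hba-a1 and Hba-a2, had 6 to 14 reads in CAST and 6 to 9 in WSB and was below the filter on low counts. Of the 32-base stretches, 44.5% of those in Hbq1a and 48.0% of those in Hbq1b occur in the other.

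The embryonic genes Hba-x and Hbb-y, with Hbb-bh0, Hbb-bh2, Hbb-bh3 and the pseudogene Hba-ps3, were listed at 0 reads in all 12 animals, which over 496875200 gene reads allows up to 0.00604 CPM before scaling. Hbb-bh1, a gene of early embryonic blood, had 1 read in all. Of 10 other globin genes, 2 were tested, 0 were called higher and 1, Hbq1a, lower in CAST; the other, Hba-ps4, had a log2 fold change of -0.40 with an adjusted p of 0.354 by edgeR and was called lower without CAST_142. Neuroglobin (Ngb) and cytoglobin (Cygb), which bind oxygen in neurons and in fibroblast-like cells, were not called, nor was either by DESeq2 or at an unadjusted p under 0.05. Cygb was at 38.7 ± 5.88 CPM (SD, n = 6) for CAST and 35.2 ± 3.38 CPM (SD, n = 6) for WSB.

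Among the other neighbours of the alpha genes, Sh3pxd2b, an adaptor protein gene beyond Hbq1a, was higher in CAST by 0.48 ± 0.08 (log2, SE), with an adjusted p of 2.42e-04 by edgeR. Mpg, a DNA repair gene before the cluster, was listed at 0; its whole body lies inside Nprl3, so nothing follows for its expression. Nprl3, a regulator of amino acid signalling, was higher in CAST by 0.22 ± 0.06 (log2, SE), with an adjusted p of 0.0105 by edgeR. On the beta side the neighbours were the odorant receptor genes Olfr68 and Olfr67 and the pseudogenes Gm15115 and Hbb-bh3. They had at most 1 read in any animal, and no gene is annotated between Hbb-bt and Hbb-bs.

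Other genes of red blood cells were near the limit of detection. Slc4a1, the anion exchanger band 3 of the red cell membrane, had 9 to 27 reads in CAST and 2 to 12 in WSB. CAST_170 was the highest CAST animal and WSB_147 the highest WSB animal for Slc4a1, as for Hba-a1. CAST_142, the lowest CAST animal for Hba-a1, Hbb-bs and Hbb-bt, was at 0.452 CPM for Slc4a1, where CAST_170 had 0.575 CPM. The level of Slc4a1 was 0.364 ± 0.132 CPM (SD, n = 6) for CAST and 0.194 ± 0.0920 CPM (SD, n = 6) for WSB. Slc4a1 was higher in CAST by 0.90 ± 0.33 (log2, SE), with an adjusted p of 0.0429 by edgeR, a call lost in 9 of 19 alternatives, among them those without CAST_170 and without CAST_142. Of 8 defining markers of the erythroid lineage, 7 were listed and 1, Slc4a1, was tested. Their summed level was 0.540 to 1.11 CPM in CAST and 0.326 to 0.665 CPM in WSB. Within CAST the sum was highest in CAST_142. Alas2, the erythroid enzyme that starts heme synthesis, was listed at 0 in every animal; its whole body lies inside other annotated genes, so nothing follows for its expression. The part of red blood cell content in the hemoglobin differences was not tested.

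The wider list of erythroid and heme synthesis genes was called in both directions. Of 16 tested members, 2 were higher in CAST and 3 lower, or 12.5% and 18.8% beside 21.5% and 21.2% of all tested genes, and the median log2 fold change was 0.05. Bpgm, which makes the 2,3-bisphosphoglycerate that lowers the oxygen affinity of hemoglobin, was higher by 0.33 ± 0.05 (log2, SE), at 55.0 ± 1.08 CPM (CAST) and 43.9 ± 3.47 CPM (WSB; SD, n = 6 per strain), with an adjusted p of 1.35e-04 by edgeR. Uros, the uroporphyrinogen III synthase of the heme pathway, was lower by far, at 6.23 ± 0.612 CPM (CAST) and 20.2 ± 1.35 CPM (WSB; SD, n = 6 per strain). Its log2 fold change was -1.69 ± 0.07 (SE), with an adjusted p of 5.95e-10 by edgeR. Fech, which inserts iron into protoporphyrin to make heme, had a log2 fold change of -0.32 ± 0.04 (SE), with an adjusted p of 9.97e-06 by edgeR. Epor, the erythropoietin receptor, had -0.32 ± 0.11 (SE) with an adjusted p of 0.0314 by edgeR, a call lost in 5 of 21 alternatives: lane 5 alone, without CAST_202, without WSB_100, without WSB_169, and without CAST_142 and WSB_100 together. Ank1, an ankyrin of the membrane skeleton of red cells that neurons also express, was the most abundant and was not called; its highest level was 366.7 CPM in CAST_142.

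Of the genes that take up, move and break down hemoglobin and heme, 11 were tested. In CAST 7 were higher and 0 lower, or 63.6% higher beside 21.5% of all tested genes, with a median log2 fold change of 0.43. Blvra and Blvrb, the biliverdin reductases, were higher by 0.67 ± 0.06 and 0.69 ± 0.06 (log2, SE), with adjusted p of 7.78e-07 and 2.93e-07 by edgeR. Blvrb was at 13.7 ± 0.513 CPM (CAST) and 8.54 ± 0.553 CPM (WSB; SD, n = 6 per strain). Slc48a1, a heme transporter of endosomes and lysosomes, was higher by 0.26 ± 0.05 (log2, SE), with an adjusted p of 0.00141 by edgeR. Haptoglobin (Hp), which binds free hemoglobin, was higher by 0.92 ± 0.20 (log2, SE) with an adjusted p of 0.00238 by edgeR, at levels under 1 CPM. The others were Hmox2, a heme oxygenase of whose body 57.1% lies outside other genes, and Flvcr1 and Flvcr2, heme or choline transporters. The calls of Hp, Flvcr1 and Flvcr2 were lost in 1, 5 and 2 of 21 alternatives. Hmox1, the inducible heme oxygenase, had a log2 fold change of -0.29 ± 0.11 (SE) with an adjusted p of 0.0540 by edgeR, and was called lower in 6 of 21 alternatives. Cd163, the receptor for haptoglobin-bound hemoglobin on macrophages, ran from 1.40 CPM in CAST_142 to 22.2 CPM in CAST_200 within CAST, and its adjusted p was 0.0832 by edgeR. Lrp1, the receptor for heme bound to hemopexin and the most abundant of the list, was not called. The count was 6 higher and 0 lower without CAST_142 and WSB_100, and 7 higher and 1 lower, Hmox1, without CAST_170. On lane 5 alone, 4 of the list were called.

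**Figure D4:**
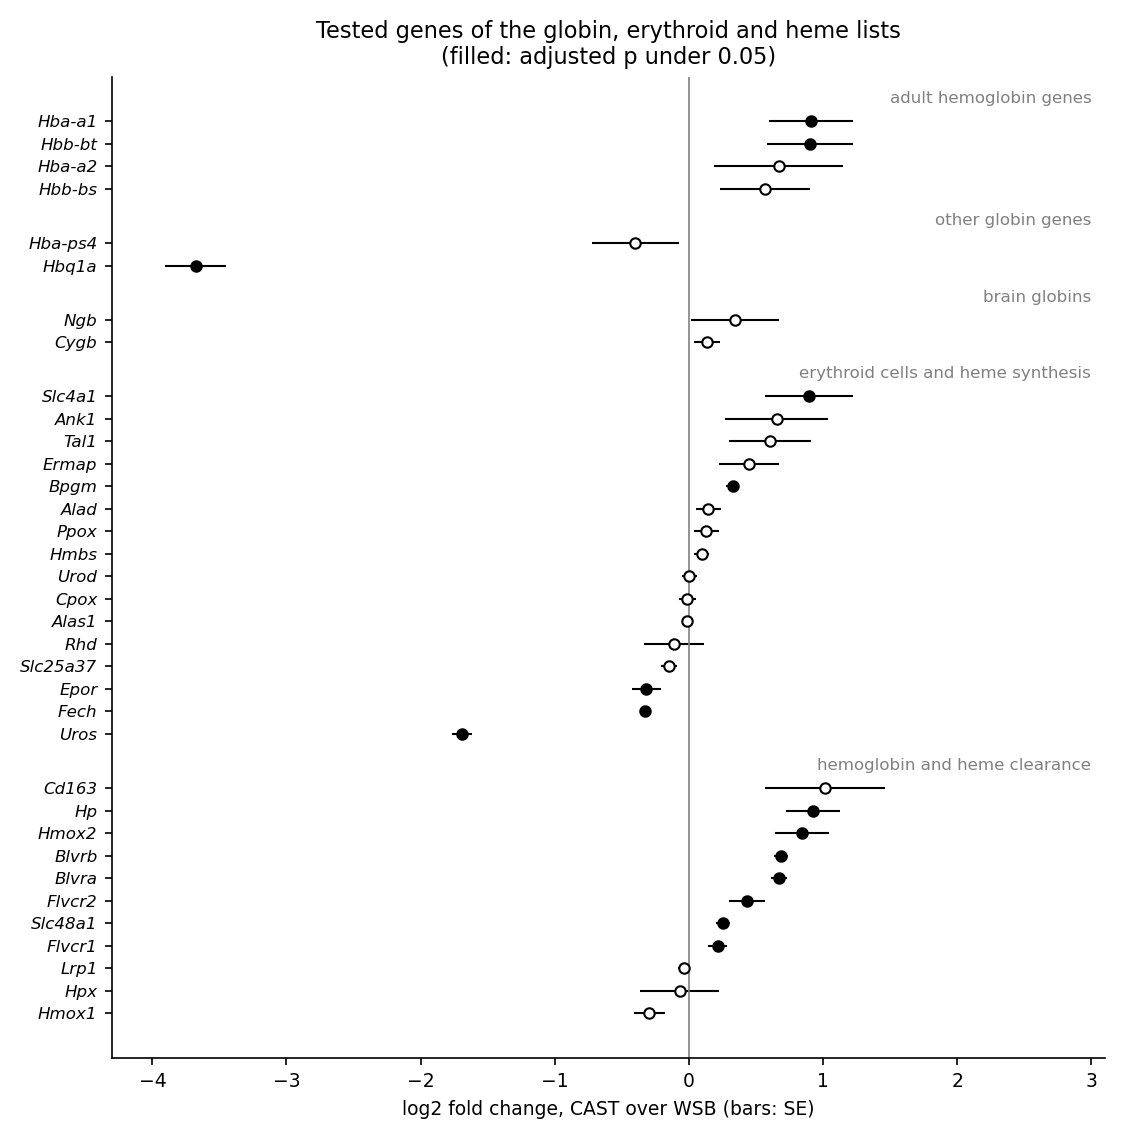
Log2 fold change, CAST over WSB (horizontal, bars are SE), of each tested gene in the lists of adult hemoglobin genes, other globin genes, brain globins, erythroid and heme synthesis genes, and hemoglobin and heme clearance genes; filled points have an adjusted p under 0.05 by edgeR. The 4 hemoglobin genes lie right of 0, Hbq1a lies far left at -3.68, and 7 of 11 clearance genes are filled and right of 0.

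Of the regulators of globin genes, 7 were tested, among them Bcl11a and Zbtb7a, repressors of fetal globin, and Ldb1, a partner of Gata1. By edgeR 0 of the 7 were called and 0 had an unadjusted p under 0.05. DESeq2 was run without that filter and called 1 of all 11 listed. The median log2 fold change was 0.05. The most abundant, the chromatin remodeller Atrx, was at 312.4 ± 14.1 CPM (CAST) and 306.1 ± 22.1 CPM (WSB; SD, n = 6 per strain).

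Markers of other cells that come with blood or vessels were called in both directions. Of 4 tested leukocyte genes, S100a9, a calcium-binding protein of neutrophils, was higher in CAST by 1.03 ± 0.31 (log2, SE), with an adjusted p of 0.0174 by edgeR. Ptprc, the most abundant leukocyte gene, was not called. The summed leukocyte level was 4.52 to 6.37 CPM in CAST and 4.61 to 6.08 CPM in WSB. Of 6 tested platelet genes, 2 were higher (Treml1 and Itga2b) and 2 lower (Gp1ba and Gp1bb) in CAST, or 66.7% called beside 42.7% of all tested genes. The call of Itga2b was lost in 11 of 21 alternatives, among them those without CAST_170, and only 8.86% of the body of Gp1bb lies outside its neighbour Sept5. The summed platelet level was 8.34 to 11.9 CPM in CAST and 14.2 to 15.4 CPM in WSB. Of 12 endothelial genes, 3 were higher (Tie1, Pecam1 and Emcn) and 5 lower (Kdr, Abcb1a, Slco1a4, Tek and Esam), again 66.7% called beside 42.7% of all, while Flt1, the most abundant, was not called. They had a summed level of 254.9 to 292.0 CPM in CAST and 263.3 to 299.3 CPM in WSB. Their part in the hemoglobin differences was not tested.

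The genes whose levels between animals were most like the hemoglobin genes were found by Pearson's r over the 12 animals, on log2 CPM centred on each strain's mean, between each of 15270 genes and the mean of the 4 members. The closest were 4930578C19Rik (r = 0.94) and Map3k21 (r = 0.92), a kinase gene. They were followed by Hhex and Cd74 (r = 0.85 each), and by Slc11a1, Csnk2a2, 4932441J04Rik, Cfap45 and Fkbp8 (r = 0.84 each) and Elac2 (r = 0.83). Without CAST_170, r was 0.93 for 4930578C19Rik and 0.94 for Map3k21. The points share library and depth, and these values are descriptions. The genes named are the highest of 15270 values of r. Hba-a2, with its few reads, weighed as much in the mean of the members as each of the others. Set against the mean of the other 3 members, Hbb-bt had r = 0.84, Hbb-bs 0.77, Hba-a1 0.70 and Hba-a2 -0.01.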

How the data were processed

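Each animal has 2 deposited files, 1 per lane, of whole-number read counts per gene, not normalized. By the submitters' processing notes, HTSeq, TopHat2 2.1.1, DESeq2 and cutadapt were used; their roles are not stated. Build, annotation, strand and read length: not given in the sources used here. Reads of overlapping or antisense genes therefore cannot be told apart. Each file lists 53465 identifiers, of which 53360 are in GENCODE M21, and 5 counters that name no gene. The counters entered no library size or test. They held the rest of the counted alignments, of which 62.9% to 68.0% per animal were in genes.

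Lanes were summed per animal. edgeR 4.0.16 (R 4.3.3; robust quasi-likelihood, TMM, default expression filter by strain) was fitted on all genes, with Benjamini-Hochberg adjustment over the 18425 tested; the standard error is the fold change divided by the root of F. DESeq2 1.42.0, other scalings, no filter, non-robust dispersion, single lanes and left-out animals were alternatives. The animal numbers are not shared between the strains. Ratios and correlations used exact permutation, with every arrangement listed. The ranks and the Clopper-Pearson intervals came from scipy 1.17.1. The edgeR fit was tried on simulated counts with known changes. The simulated spread between animals was the same for all genes and was not set to that of the hemoglobin genes. Promoters are RefSeq's, and all 4 genes matched by symbol.

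The members and gene lists were chosen with earlier results of these data known. Genes named are the 4 members; of each list up to 3 called members with the smallest p in each direction, the most abundant and any at 0; the 10 genes most like the members; and the annotated neighbours. Hba-a1's reads per lane, Hmox1, Hmox2, Flvcr1, Flvcr2, Hp, Cd163, Hbq1b, Hba-ps4, Hbb-bh1, Nprl3, Ngb, Tek, Esam and some regulators were added outside this rule, after values were seen. A gene of the list used to check the tissue is not reported here, and its summed levels leave that gene out.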

Additional observations from a re-analysis of the deposited data

Results flagged for a closer look

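In 34 groups of 6 animals, 7 had an animal whose gap to the next exceeded Dixon's 95% critical value, where chance gives about 1 in 20. For hemoglobin genes these were CAST_170 in Hbb-bs, at 79.5 CPM where the other CAST animals had 18.8 to 35.5, and in Hbb-bt, at 30.4 CPM where they had 8.63 to 16.2. In the log2 ratio of alpha to beta reads, CAST_200 had -0.45 where the other CAST animals had -0.72 to -0.62. The lanes of CAST_200 disagreed on this ratio. It was -0.86 on lane 5, the lowest of the CAST animals, and -0.058 on lane 6, the highest of them. In summed levels of gene lists, CAST_142 stood above the other CAST animals for the other globin genes (1.31 CPM against 0.478 to 0.783), for erythroid and heme synthesis genes (711.6 CPM against 399.9 to 422.8) and for clearance genes (1280.0 CPM against 1152 to 1194). Ank1 alone had 366.7 CPM in CAST_142 against 74.1 to 97.6 in the others, and the rest of the erythroid list 344.9 CPM against 323.3 to 327.6. Lrp1 alone had 1066 CPM against 932.8 to 955.1, and the rest of the clearance list 213.7 CPM against 213.4 to 238.6. WSB_147 stood above the other WSB animals for platelet genes, at 15.4 CPM against 14.2 to 14.5. The causes were not tested.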

How the results depend on the processing

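All 21 alternatives for Hba-a1, Hbb-bs and Hbb-bt and all 19 for Hba-a2 gave a higher level in CAST. Without the filter on low counts, Hba-a1 had 0.91 (adjusted p 0.0754 by edgeR) and Hbb-bt 0.90 (adjusted p 0.0821), so 0 members were called; on lane 6 alone Hba-a1 had 0.95 (adjusted p 0.0683) and 1 was called. Leaving out 1 animal at a time gave 0.58 to 1.06 for Hba-a1 (adjusted p 0.0159 to 0.0739), 0.42 to 0.91 for Hba-a2, 0.19 to 0.80 for Hbb-bs and 0.64 to 1.17 for Hbb-bt (adjusted p 0.00671 to 0.0948), with 0 to 2 members called. DESeq2 gave Hba-a1 an adjusted p of 0.00847 and Hbb-bt 0.0119.

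The beta copy ratio differed by -0.29 on lane 5 (adjusted p 0.351 by exact permutation) and by -0.48 to -0.36 without 1 animal. The alpha copy ratio turned to -0.21 on lane 5 and to -0.38 without CAST_170, within a leave-one-out range of -0.38 to 0.44. Alpha over beta differed by 0.10 to 0.29 without 1 animal and by 0.11 to 0.39 in the other alternatives. On lane 6 alone, 1 gene pair passed the test for r instead of 4.

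The list counts and the lane and scaling checks of r were alternatives chosen after seeing the data. Other globin genes numbered 2 called on lane 5 and without CAST_142 and WSB_100; erythroid and heme genes 3 and clearance genes 4 on lane 5. Globin regulators numbered 1 called, of all 11 listed, without the filter and by DESeq2. Leukocyte genes numbered 2 with library totals only, without the filter, without robust dispersion and by DESeq2, and 0 on lane 5. Without 1 animal, 1 to 2 other globin genes were called (2 without CAST_142), 3 to 6 erythroid (3 without WSB_169), 6 to 9 clearance, 0 to 1 regulator (1 without WSB_120), 1 to 2 leukocyte (2 without CAST_201 or WSB_120), 3 to 4 platelet and 7 to 8 endothelial genes. The causes were not tested. Hba-a2 was below the filter on single lanes, and its 2 to 22 reads per animal limit every value of the alpha copies.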
